A study of Mus musculus with 35 samples.

Results

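The genes described here are 31 genes of cholesterol synthesis and sterol handling, followed through 4 cell populations (neural, mural, endothelial and microglial) of the wild-type mouse brain at E14.5. They were taken by name from a fixed list, which was chosen with earlier results of these data known. All 31 are among the 53465 genes of the bulk RNA-seq table. Of them, 8 make the precursors of squalene (*Acly*, *Acat2*, *Hmgcs1*, *Mvk*, *Pmvk*, *Mvd*, *Idi1* and *Fdps*), 11 lead from squalene synthesis to cholesterol (*Fdft1*, *Sqle*, *Lss*, *Cyp51*, *Tm7sf2*, *Msmo1*, *Nsdhl*, *Hsd17b7*, *Ebp*, *Sc5d* and *Dhcr7*), 5 sense sterols and switch the enzyme genes on or hold them back (*Srebf1*, *Srebf2*, *Scap*, *Insig1* and *Insig2*), 5 belong to the response to excess sterol (*Nr1h2*, *Nr1h3*, *Abca1*, *Abcg1* and *Lpcat3*), and 2 store or carry cholesterol (*Soat1* and *Stard4*).

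The 4 populations were sorted by FACS from each of 3 untreated wild-type brains, which gave 12 bulk libraries. The libraries of a brain share the number in their names (N-340, N-343 and N-346 are neural, and Mu-, Ec- and Mi- stand for the others), and values are given below in that order, as the first, the second and the third brain. Mural cells were sorted as PDGFRβ high, endothelial cells by PECAM1 and CD102, microglia by CD11b and medium CD45, and neural cells as negative for all of these and for CD41, so that the neural population mixes progenitors and neurons. In a second experiment single cells of gates for the same 4 populations were sorted into the wells of 3 plates. The well label of the microglia gate reads CD41 positive and CD45 medium and does not name CD11b, whereas the paper describes CD11b and CD45. The cells were sequenced by mCEL-Seq2, in which transcripts carry molecular identifiers and are counted near their 3' end. The neural bulk libraries were made from far more cells and with another RNA kit and library kit (TruSeq) than the other 9 (SMART-Seq v4), so in bulk the neural population and the kit cannot be told apart, whereas the single cells of all gates share 1 chemistry.

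Cholesterol does not cross into the brain from the blood, so brain cells make their own. Acetyl-CoA is turned through mevalonate into isoprenoids, which are joined to squalene, closed to lanosterol and trimmed stepwise to cholesterol. When membrane sterol falls, SCAP carries the SREBP transcription factors, encoded by *Srebf1* and *Srebf2*, out of the endoplasmic reticulum for cleavage, and the INSIG proteins hold them back when sterol is plentiful. Oxysterols made from surplus cholesterol bind the LXR receptors, encoded by *Nr1h3* (LXRα) and *Nr1h2* (LXRβ), which switch on the exporters ABCA1 and ABCG1 and the phospholipid enzyme LPCAT3.

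The bulk libraries held between 17638358 and 98414914 reads on genes. Their sorting was checked against 6 marker genes a population. The summed normalized count of each population's markers was highest in its own 3 libraries, at 112387 to 122989 for neural, 692304 to 742045 for mural, 152063 to 181424 for endothelial and 183035 to 213836 for microglia markers. Neural markers summed to 21209 to 41224 in the mural libraries, most of it *Fabp7*. The 4 border macrophage markers summed to 8983 to 11743 in the microglia libraries, and the 4 erythroid markers to 8686 to 23921 in the endothelial and 5848 to 8392 in the neural libraries. *C1qc* was at 0 in all 3 neural and all 3 mural libraries. The part of these other cells in the results was not tested.

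The stretches just upstream of the starts of some of the genes are shown first, as a description. Whether they bear on the levels was not tested. RefSeq promoters (GRCm38.p6, 250 bases before to 50 bases after a start) were found for 26 of the 31 genes, as 35 windows. They were searched on both strands for TCACNCCAC, a sterol response element that SREBPs bind, for its form TCACCCCAC, which is contained in the former, and for CCAAT, the box bound by NF-Y. TCACCCCAC was found in 1 of the 35 windows, that of *Hmgcs1*, against 0.551% of 32851 promoters of all genes, and TCACNCCAC in the same window only, against 1.24%. CCAAT was found in 22 of 35 windows (62.9%) and in 15 of the 19 windows of the synthesis enzymes (78.9%), against 37.4% of all promoters. In the 250 upstream bases below, each read along the gene's own strand, the capitals mark these letters on either strand (ATTGG is CCAAT on the other strand). *Hmgcs1*, *Idi1* and *Sc5d* are shown as enzyme genes that were highest in neural cells, *Srebf2* as the gene of the factor itself, and *Abca1* as a gene that was high in endothelial cells and microglia and had no match. CCAAT did not part these groups. It was also found for *Lpcat3*, *Soat1* and *Ebp*, which were lower in neural cells, and not for *Scap*, which was higher there. No element bound by LXR was searched for.
Hmgcs1 (chr13:119690101-119690350, plus strand): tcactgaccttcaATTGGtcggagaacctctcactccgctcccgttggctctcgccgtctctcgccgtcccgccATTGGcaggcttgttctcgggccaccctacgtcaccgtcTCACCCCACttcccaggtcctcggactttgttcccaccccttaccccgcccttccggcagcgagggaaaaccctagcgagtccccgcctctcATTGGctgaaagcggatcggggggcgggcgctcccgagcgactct
Idi1 (chr13:8885356-8885605, plus strand): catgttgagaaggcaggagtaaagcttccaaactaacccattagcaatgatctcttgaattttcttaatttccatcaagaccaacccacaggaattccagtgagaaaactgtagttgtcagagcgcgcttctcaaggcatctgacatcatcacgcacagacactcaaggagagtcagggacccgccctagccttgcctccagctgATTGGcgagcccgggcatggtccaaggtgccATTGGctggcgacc
Sc5d (chr9:42264301-42264550, minus strand): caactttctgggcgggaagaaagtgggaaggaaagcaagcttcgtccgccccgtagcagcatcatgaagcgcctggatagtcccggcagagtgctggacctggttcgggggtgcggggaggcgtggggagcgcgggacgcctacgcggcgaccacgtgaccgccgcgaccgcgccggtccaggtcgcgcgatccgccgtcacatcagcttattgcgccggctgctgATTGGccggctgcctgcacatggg
Srebf2 (chr15:82147019-82147268, plus strand): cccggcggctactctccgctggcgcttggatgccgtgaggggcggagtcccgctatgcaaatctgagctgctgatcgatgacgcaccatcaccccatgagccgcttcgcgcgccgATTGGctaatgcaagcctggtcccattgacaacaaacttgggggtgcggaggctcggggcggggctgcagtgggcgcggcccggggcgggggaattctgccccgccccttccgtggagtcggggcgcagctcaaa
Abca1 (chr4:53159896-53160145, minus strand): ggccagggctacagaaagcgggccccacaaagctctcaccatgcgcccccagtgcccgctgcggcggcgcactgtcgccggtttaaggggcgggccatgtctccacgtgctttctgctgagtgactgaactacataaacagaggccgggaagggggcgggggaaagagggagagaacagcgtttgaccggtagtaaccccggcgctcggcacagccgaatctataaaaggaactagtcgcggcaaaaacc
The sterol response element of *Hmgcs1* lies 137 to 129 bases before the start. The matches are a description of these windows and were not set against any binding data.

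The first question was in which population each gene stood highest. In bulk, 12 of the 19 synthesis enzymes were called higher in neural cells, *Pmvk* and *Ebp* were called lower and the other 5 were not called, and 10 of the 19 were lower in microglia. Of the SREBP system all but *Insig2* were higher in neural cells, while *Abca1*, *Abcg1* and *Lpcat3* were high in endothelial cells and microglia, *Nr1h3* in mural cells, *Soat1* and *Ebp* in microglia, and *Stard4* in endothelial cells. Each population was compared with the mean of the other 3 by limma on log2(normalized count + 1), and a gene was called at a Benjamini-Hochberg adjusted p under 0.05 over 19765 genes. In neural cells 16 of the 31 genes were higher and 6 lower, where 32.9% of all tested genes were called higher and 31.2% lower. The mural counts were 4 higher and 9 lower, against 19.3% and 22.7% of all genes. The endothelial counts were 5 and 8, against 19.7% and 22.4%, and those of microglia 5 and 12, against 23.4% and 22.3%. Counted by libraries, 15 of the 31 genes had all 3 neural libraries above the other 9 and 4 had them all below, where 25.2% and 17.3% of all genes did. This was so of 1 and 2 genes for mural libraries (7.25% and 4.3% of all genes), 1 and 0 for endothelial ones (6.28% and 2.99%) and 3 and 5 for microglia (11.5% and 5.97%).

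The median log2 difference of the 31 genes was 1.03 (neural), 0.10 (mural), -0.30 (endothelial) and -0.55 (microglia), beside 0.09, -0.10, -0.12 and -0.02 for all tested genes. Quantile normalization moved the median of all genes in neural cells to -0.16 and that of the 31 genes to 0.55. The scale of the libraries bore on the calls. With each library scaled to the same sum of counts per exon length, a choice made after seeing the data, the medians of all genes were 1.07 (neural), -0.09 (mural), -0.60 (endothelial) and -0.53 (microglia), and those of the 31 genes 2.04, 0.12, -0.80 and -1.08. On that scale 22 of the 31 genes were higher in neural cells and 3 lower, where 50.8% and 19.5% of all genes were. The counts were 4 and 7 in mural cells (19.8% and 21.6% of all genes), 2 and 14 in endothelial cells (13% and 36.6%) and 4 and 18 in microglia (15.3% and 34.5%). Of the enzymes 17 were then higher in neural cells, with *Ebp* still lower and *Pmvk* not called. Of the 65 calls among the 31 genes 56 held, 8 were lost and *Pmvk* in neural cells turned, and 18 others were gained. Orders and overlaps of libraries below are on the deposited scale except where another is named. The neural median of the 11 squalene to cholesterol enzymes was 1.56, and that of the 5 genes of the response to excess sterol -2.23 (2.57 and -1.22 on equal sums per exon length). Among the other 3 populations, which share a library kit, each against the mean of the other 2, the counts were 5 higher and 4 lower in mural cells (12.7% and 14.8% of all genes), 4 and 1 in endothelial cells (11% and 11.4%) and 7 and 7 in microglia (15.6% and 14.1%). Without the first brain the endothelial counts were 2 higher and 4 lower (13.7% and 16.3% of all genes), without the third they were 3 and 5 (15.4% and 16.2%), and without the second the mural number higher was 2 (13.4% of all genes), as it was without the third. In bulk, fewer cells of a type and less RNA per cell cannot be told apart.

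The populations were also compared pair by pair, first within 1 kit. Between mural cells and microglia 11 of the 31 genes were higher in mural cells and 7 lower, against 17.9% and 20.1% of all genes. Between endothelial cells and microglia the numbers were 8 and 4 (15.3% and 17%), and between mural and endothelial cells 3 and 5 (13.5% and 14.3%), a share of the 31 genes near that of all genes. Of the 19 synthesis enzymes, 9 were higher in mural cells than in microglia and 6 higher in endothelial cells than in microglia. Across the kits, 15 genes were higher and 7 lower in neural than in mural cells (28.7% and 25.8% of all genes), 15 and 6 against endothelial cells (30.6% and 27.1%), and 19 and 4 against microglia (30.4% and 29.3%).

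**Figure D1:**
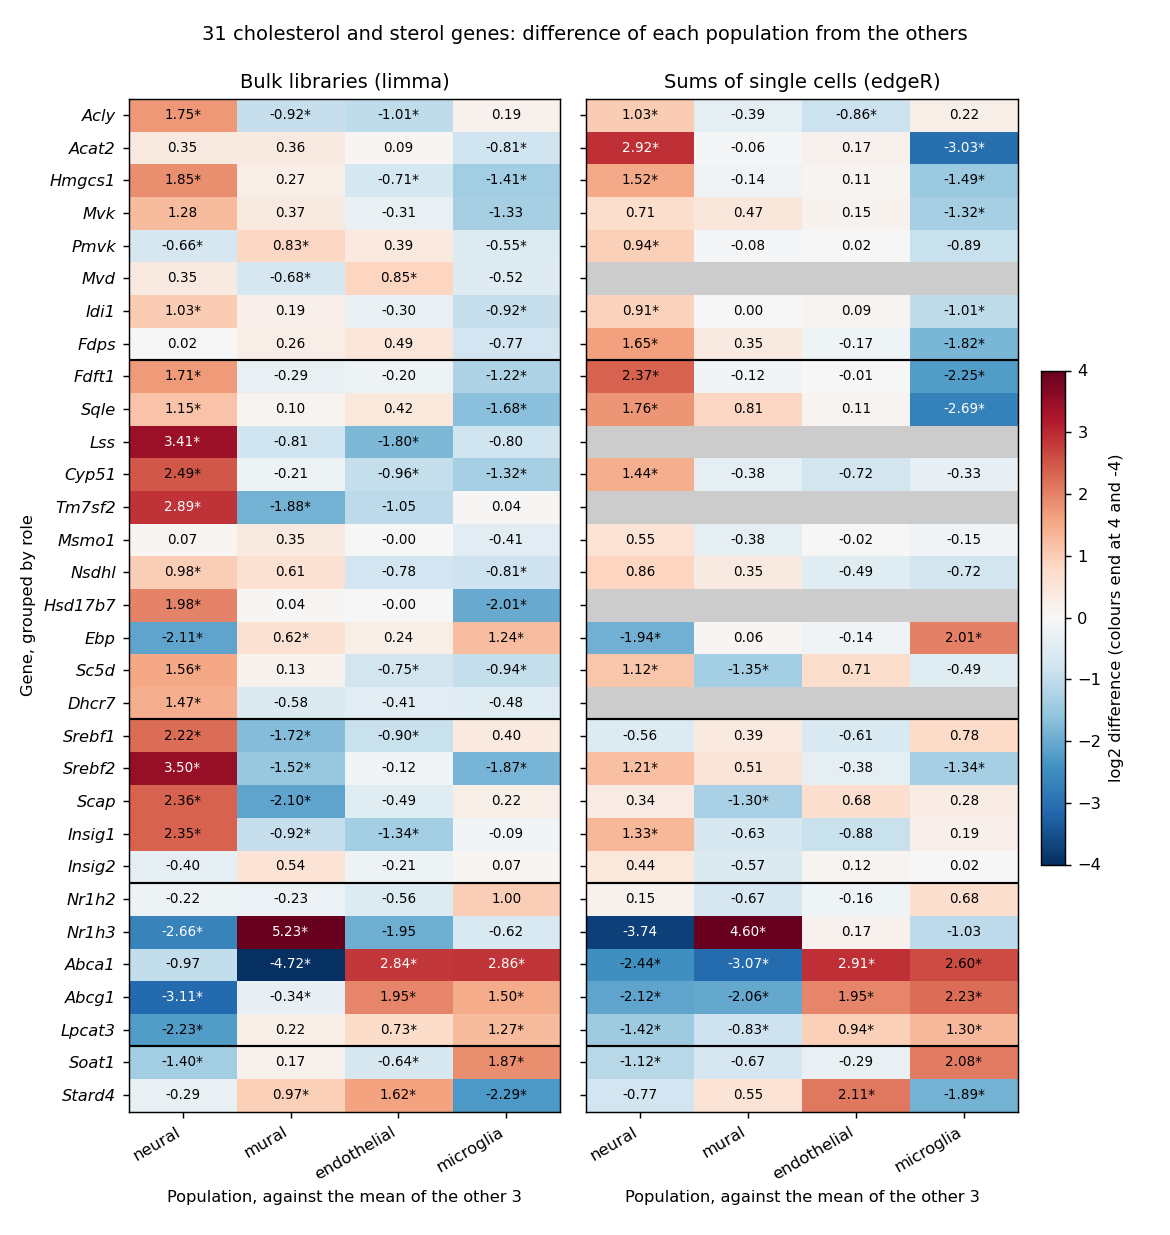
Each cell gives the log2 difference of 1 population (columns) from the mean of the other 3 for 1 of the 31 genes (rows, grouped by role), in the 12 bulk libraries on the left and in sums of single cells on the right. Red is higher, blue lower, an asterisk marks an adjusted p under 0.05, and grey marks the 5 genes whose single-cell levels were too low to be tested. The single-cell mural asterisk of *Nr1h3* is no result, since the gene was tested through its mural sums alone. The neural column is mostly red for the enzymes and blue for *Abcg1* and *Lpcat3*, with the reverse in microglia.

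Among the 8 genes of the early steps, *Acly*, *Hmgcs1* and *Idi1* were higher in neural cells, *Pmvk* was lower, and the other 4 were not called there, where 32.9% of all genes were higher and 31.2% lower. *Hmgcs1*, on chromosome 13 of GRCm38 from 119690379 to 119708260, encodes the enzyme that makes HMG-CoA. Its normalized count was 11706, 11971 and 12413 in the neural libraries (the first, the second and the third brain), 4491, 6789 and 4846 in the mural, 3636, 2151 and 4138 in the endothelial and 2651, 1753 and 2345 in the microglia libraries. All neural libraries lay above the other 9, and the mural libraries above the endothelial and microglia ones. The neural difference was 1.85 (SE 0.20, limma, adjusted p = 1.7e-05) and that of microglia -1.41 (SE 0.20, adjusted p = 0.00021). The endothelial call (-0.71) was lost without the first or the third brain (adjusted p = 0.077 and 0.056), and within the shared kit the value was -0.10 (adjusted p = 0.81). Some exon bases of *Hmgcs1* overlap the opposite-strand transcript *Gm48342*, so its reads are uncertain.

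*Acly* makes the cytosolic acetyl-CoA that feeds both cholesterol and fatty acid synthesis. It read 14651, 14619 and 15537 in neural, 3967, 2639 and 4969 in mural, 2692, 4911 and 3384 in endothelial and 6727, 8009 and 5397 in microglia. Neural libraries were again apart, but here the microglia libraries came next, all above the mural and endothelial ones. The neural difference was 1.75 (SE 0.21), and *Acly* was lower in mural (-0.92) and endothelial cells (-1.01) and not called in microglia (0.19). Against the populations of its own kit the endothelial value was -0.49 (limma, adjusted p = 0.22) and the mural value -0.38 (adjusted p = 0.32), and without the first brain the endothelial call was lost (adjusted p = 0.087).

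*Idi1*, the isomerase that sets the ratio of the building blocks of isoprenoids, read 451, 413 and 379 in neural, 329, 232 and 251 in mural, 282, 123 and 253 in endothelial and 160, 177 and 117 in microglia. The neural libraries lay above all others by a small margin, with a difference of 1.03 (SE 0.30, limma, adjusted p = 0.011). This call was lost without the first (adjusted p = 0.05) or the third brain (adjusted p = 0.066) and under quantile normalization (0.48, adjusted p = 0.24). The microglia call (-0.92) was lost without the first or the third brain (adjusted p = 0.14 and 0.21) and within the shared kit (-0.65, adjusted p = 0.23), and the exons overlap *Gm48574* on the other strand. *Acat2*, the thiolase of the first step, was not called in neural cells in bulk (0.35). It read 2556, 2620 and 2614 in neural, 2293, 3501 and 2211 in mural, 2746, 2169 and 1953 in endothelial and 1275, 1422 and 1567 in microglia. Only the microglia libraries stood apart, below all others (-0.81, SE 0.16, limma, adjusted p = 0.0017). Scaled to equal sums per exon length, all neural libraries of *Acat2* lay above the other 9, at a difference of 1.37 (SE 0.17, limma, adjusted p = 3.2e-05). *Acat2* lies beside the near-identical *Acat3*, so its reads are uncertain.

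*Pmvk*, a kinase of the mevalonate steps, went the other way, at 909 to 983 in neural and 877 to 1094 in microglia libraries against 1968 to 2195 in mural ones. It was higher in mural cells (0.83, SE 0.17, limma, adjusted p = 0.0028) and lower in neural cells (-0.66), calls that were lost without the second brain (adjusted p = 0.054 and 0.078). Scaled to equal sums per exon length its neural difference was 0.35 (SE 0.21, limma, adjusted p = 0.15), so that its sign depended on the scale. It was also lower in microglia (-0.55), not without the first or the second brain (adjusted p = 0.11 in both). *Mvd*, the decarboxylase that follows it, had its highest mean in endothelial libraries, at 617 to 1472, where it was called higher (0.85, SE 0.24), but not without the first (limma, adjusted p = 0.11) or the second brain (adjusted p = 0.15) nor on equal sums per exon length (0.35, adjusted p = 0.33). Its mural call (-0.68) was lost without any 1 brain and with a block for the brain (adjusted p = 0.066). *Mvk* and *Fdps* were called in no population on the deposited scale, with *Mvk* at 70.9 in Ec-340 against 656 and 620 in the other two. The exons of *Fdps* overlap *Gm43738*.

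Of the 11 genes from squalene synthesis onwards, 9 were higher in neural cells and 8 of these had all neural libraries above the other 9, where 25.2% of all genes did so. *Fdft1* encodes squalene synthase, the first step given over to sterols alone, and lies on chromosome 14 from 63145150 to 63179578. It read 3532, 3614 and 3751 in neural, 1392, 1389 and 1099 in mural, 1262, 1387 and 1404 in endothelial and 578, 804 and 1071 in microglia. The order was neural, then mural and endothelial without a called difference between them (-0.07, SE 0.21), then microglia, whose libraries all lay below the others. The neural difference was 1.71 (SE 0.17, limma, adjusted p = 8.7e-06) and the microglia difference -1.22 (SE 0.17, adjusted p = 0.00017). The exons of *Fdft1* overlap those of *Ctsb* on the other strand, and since it is not given here whether counting used the strand, its reads are uncertain.

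*Sqle*, which makes the epoxide of squalene and is a rate-limiting enzyme, read 3801, 3811 and 4036 in neural, 2567, 2082 and 2118 in mural, 2826, 3783 and 1745 in endothelial and 565, 1077 and 1159 in microglia. Here 1 endothelial library came close to the neural ones, and microglia stood apart at the bottom (-1.68, SE 0.25, limma, adjusted p = 0.00026). The neural difference was 1.15 (SE 0.25). *Cyp51*, the demethylase of lanosterol, read 5479, 5492 and 5767 in neural, 1628, 1277 and 1244 in mural, 1045, 640 and 1185 in endothelial and 631, 812 and 880 in microglia. Its neural difference of 2.49 (SE 0.19, limma, adjusted p = 1e-06) had the smallest adjusted p of the enzymes' neural contrasts. *Cyp51* overlaps *Akap9* on the other strand. Against mural and endothelial cells alone the microglia call of *Cyp51* was lost (-0.55, limma, adjusted p = 0.12), and the endothelial value within the shared kit was -0.15 (adjusted p = 0.70).

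The largest enzyme differences were those of *Lss*, the cyclase that closes squalene epoxide to lanosterol, and *Tm7sf2*, a sterol reductase. *Lss* read 2812, 2616 and 2907 in neural, 290, 252 and 404 in mural, 230, 53.9 and 499 in endothelial and 294, 340 and 301 in microglia. *Tm7sf2* read 584, 621 and 558 in neural, 51.6, 27.4 and 79.8 in mural, 47.8, 36.9 and 235 in endothelial and 71.3, 166 and 199 in microglia. For both, the neural libraries lay above all others, which overlapped one another, and the neural differences were 3.41 (SE 0.50) and 2.89 (SE 0.58). The exons of *Tm7sf2* overlap *Vps51* on the same strand and those of *Lss* overlap the transcript *4930483K19Rik*, so both are uncertain. The endothelial call of *Lss* (-1.80) was lost without the first or the second brain (limma, adjusted p = 0.11 and 0.07), and the mural call of *Tm7sf2* (-1.88) likewise (adjusted p = 0.076 and 0.15) and without Mu-343 alone (adjusted p = 0.11). Within the shared kit these values were -0.75 for *Lss* (limma, adjusted p = 0.44) and -1.03 for *Tm7sf2* (adjusted p = 0.34).

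*Hsd17b7*, a ketoreductase of the demethylation steps, covered a wider range. It read 978, 990 and 1086 in neural, 444, 305 and 375 in mural, 245, 561 and 347 in endothelial and 80.8, 122 and 208 in microglia. It was higher in neural cells (1.98, SE 0.32) and lower in microglia (-2.01, SE 0.32, limma, adjusted p = 0.00041), with both groups apart from the rest. *Sc5d*, a desaturase near the end of the pathway, read 2648, 2606 and 2731 in neural, 1152, 1329 and 1327 in mural, 858, 1045 and 573 in endothelial and 712, 643 and 835 in microglia. Its neural difference was 1.56 (SE 0.18) and its mural libraries held the second place. The endothelial call (-0.75) was lost without the first or the third brain (limma, adjusted p = 0.056 and 0.075), and within the shared kit both this value and the microglia difference of -0.94 were not called (-0.26, adjusted p = 0.44, and -0.47, adjusted p = 0.14).

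*Dhcr7*, the reductase whose loss causes Smith-Lemli-Opitz syndrome in humans, read 1546, 1642 and 1669 in neural, 780, 430 and 519 in mural, 230, 1049 and 937 in endothelial and 680, 426 and 705 in microglia. The neural difference of 1.47 (SE 0.41) was lost without the second (limma, adjusted p = 0.053) or the third brain (adjusted p = 0.069). *Nsdhl*, at 891 to 980 in neural libraries, overlapped the mural range of 633 to 1005. Its neural difference of 0.98 (SE 0.29) was lost without the third brain (limma, adjusted p = 0.095) and under quantile normalization (0.55, adjusted p = 0.089), and its microglia difference of -0.81 was lost without any 1 brain and, at an adjusted p of 0.053, with a block for the brain, and was -0.55 within the shared kit (adjusted p = 0.30). *Msmo1* was called in no population on the deposited scale, with means from 1630 in microglia to 2465 in mural libraries.

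*Ebp*, the sterol isomerase that also binds the drug emopamil, ran against most of the pathway. It read 239, 204 and 253 in neural, 880, 1047 and 960 in mural, 959, 717 and 704 in endothelial and 1198, 1198 and 1614 in microglia. The neural libraries were the lowest and the microglia libraries the highest, neither overlapping the others. *Ebp* was lower in neural cells by -2.11 (SE 0.17, limma, adjusted p = 1.8e-06) and higher in microglia (1.24, SE 0.17, adjusted p = 0.00016). On equal sums per exon length both calls of *Ebp* held (-1.10 and 0.71, limma, adjusted p = 0.00061 and 0.013), but the microglia libraries overlapped the others. Its mural call (0.62) was lost without the second or the third brain (adjusted p = 0.15 and 0.055) and was -0.09 within the shared kit.

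The SREBP system followed the enzymes, with 4 of its 5 genes higher in neural cells (32.9% of all genes were) and all neural libraries of these 4 above the other 9. *Srebf2*, on chromosome 15 from 82147181 to 82205379, encodes the SREBP best known for the cholesterol genes. It read 7843, 7832 and 8526 in neural, 706, 418 and 711 in mural, 1347, 978 and 1416 in endothelial and 279, 637 and 680 in microglia. The neural difference of 3.5 (SE 0.27, limma, adjusted p = 1.3e-06) was the largest of the 31 genes in that population. The endothelial libraries came second, all above the mural and microglia ones. *Srebf2* was lower in mural cells (-1.52) and microglia (-1.87), and within the shared kit these were -0.39 (limma, adjusted p = 0.44) and -0.79 (adjusted p = 0.12).

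*Srebf1*, whose main product drives fatty acid genes, read 1988, 1845 and 2102 in neural, 209, 167 and 469 in mural, 291, 491 and 415 in endothelial and 685, 749 and 870 in microglia. After the neural libraries, at a difference of 2.22 (SE 0.29), the microglia libraries lay highest, above all mural and endothelial ones. *Scap*, the sterol sensor that escorts SREBPs, read 2090, 2027 and 2165 in neural, 178, 247 and 197 in mural, 709, 329 and 462 in endothelial and 647, 497 and 1010 in microglia. It was higher in neural cells (2.36, SE 0.27) and lower in mural cells (-2.10, SE 0.27, limma, adjusted p = 0.00012), whose libraries lay below all others, and the mural call held within the shared kit (-1.47, adjusted p = 0.012). The endothelial call of *Srebf1* (-0.90) was lost without the first or the third brain (limma, adjusted p = 0.19 and 0.081) and without Ec-340 alone (adjusted p = 0.12). Within the shared kit the endothelial value of *Srebf1* was -0.18 (limma, adjusted p = 0.77) and the mural value -1.10 (adjusted p = 0.053). Both genes overlap other transcripts (*Rai1* and *5830462I19Rik*), so their reads are uncertain.

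*Insig1*, a sterol-controlled brake that is itself an SREBP target, read 4309, 3969 and 4003 in neural, 702, 1084 and 546 in mural, 638, 711 and 469 in endothelial and 1017, 1479 and 997 in microglia. Its neural difference was 2.35 (SE 0.22, limma, adjusted p = 4.9e-06). It was lower in endothelial (-1.34) and mural cells (-0.92), the latter not without the first brain (adjusted p = 0.086), and neither within the shared kit (adjusted p = 0.14 and 0.73). The related brake *Insig2* was called in no population (neural -0.40, adjusted p = 0.35). It read 661, 707 and 758 in neural, 1296, 1039 and 1142 in mural, 1894, 393 and 636 in endothelial and 915, 946 and 851 in microglia libraries, so that the endothelial libraries held both the lowest and the highest value.

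**Figure D2:**
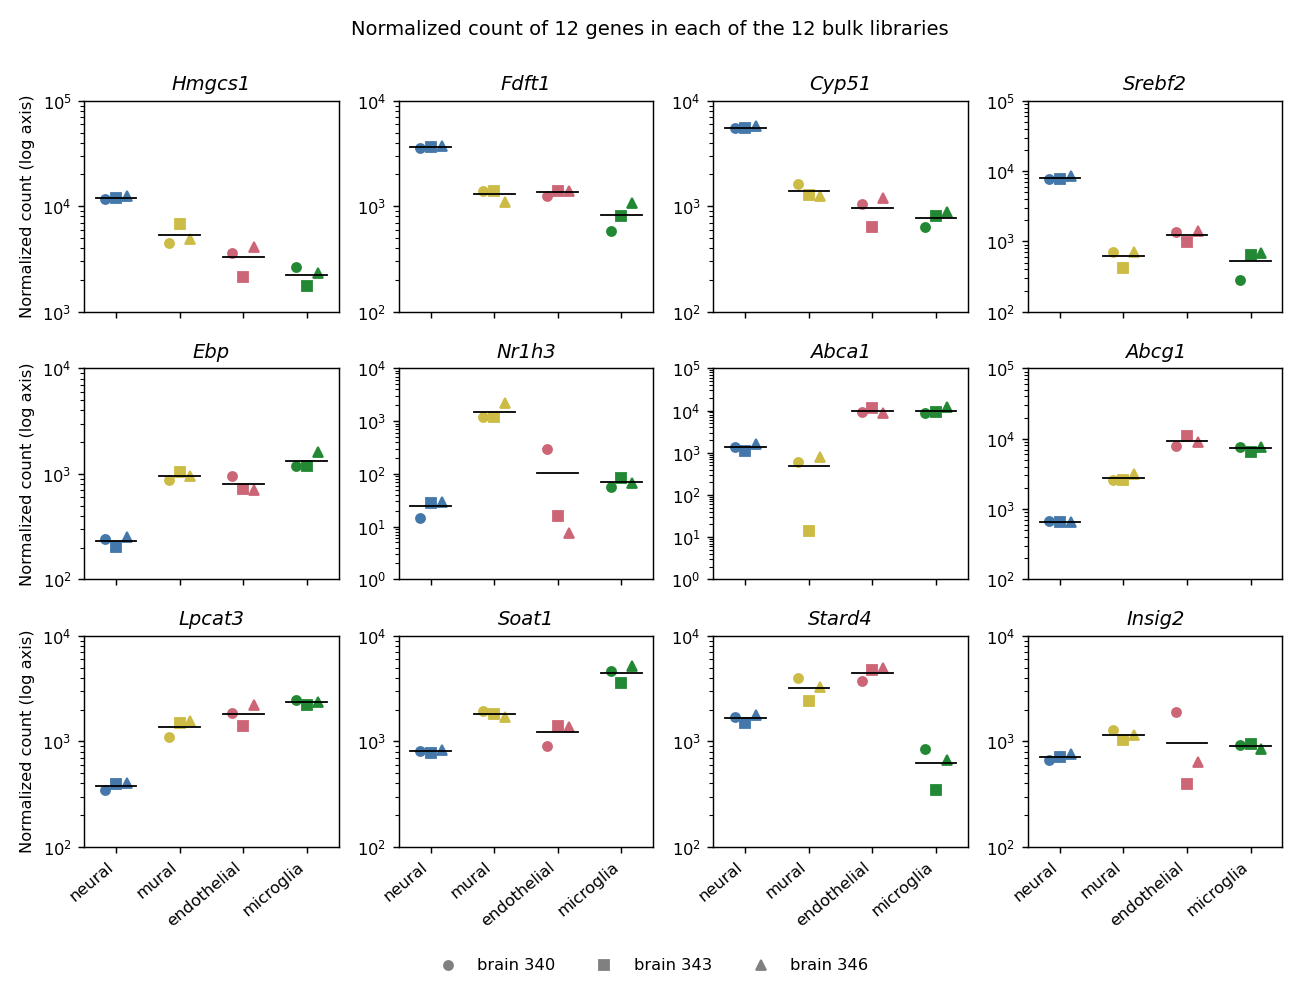
Normalized count on a log axis of 12 of the genes in each of the 12 bulk libraries, with the marker shape giving the brain and the line the mean of a population. The neural points lie far above the others for *Hmgcs1*, *Fdft1*, *Cyp51* and *Srebf2*, and far below them for *Ebp*, *Abcg1* and *Lpcat3*. Among the libraries of its population, Mu-343 stands alone for *Abca1* and Ec-340 for *Nr1h3* and *Insig2*.

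Of the 5 genes of the response to excess sterol, 3 were lower in neural cells, against 31.2% of all genes, and the other 2 were not called there. *Abcg1*, on chromosome 17 from 31057675 to 31117988, encodes an exporter of cholesterol to lipoproteins. It read 665, 652 and 661 in neural, 2594, 2607 and 3166 in mural, 7933, 10929 and 8867 in endothelial and 7573, 6538 and 7652 in microglia. The populations fell into the order endothelial and microglia, mural, neural, and the endothelial libraries all lay above the other 9, though not on equal sums per exon length. *Abcg1* was higher in endothelial cells (1.95, SE 0.12, limma, adjusted p = 5.4e-07) and microglia (1.5, SE 0.12) and lower in neural cells (-3.11, SE 0.12). Endothelial cells and microglia differed by 0.34 (SE 0.14, limma, adjusted p = 0.093). The mural call (-0.34, adjusted p = 0.035) was lost without any 1 brain, without Mu-343 alone (adjusted p = 0.12) and with a block for the brain (adjusted p = 0.056).

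*Abca1*, on chromosome 4 from 53030787 to 53159895, loads cholesterol on to apolipoproteins. It read 1335, 1116 and 1654 in neural, 607, 13.7 and 796 in mural, 9311, 11498 and 8882 in endothelial and 8857, 9020 and 12169 in microglia. The endothelial and microglia libraries overlapped each other and lay above the neural ones, and all mural libraries lay below the rest, Mu-343 far below. *Abca1* was higher in endothelial cells (2.84, SE 0.94, limma, adjusted p = 0.031) and microglia (2.86, SE 0.94, adjusted p = 0.028) and lower in mural cells (-4.72, SE 0.94, adjusted p = 0.0022). Without Mu-343 these differences were 2.22, 2.24 and -2.87, with limma adjusted p = 7.9e-06, 3.6e-06 and 6.3e-06. With that library kept, the endothelial and microglia calls were lost without the first (adjusted p = 0.13 and 0.12) or the third brain (adjusted p = 0.096 and 0.12), and the endothelial call without Ec-340 alone (adjusted p = 0.076). Both were also lost within the shared kit (2.83 and 2.85, limma, adjusted p = 0.12 and 0.099) and on equal sums per exon length (2.34 and 2.32, adjusted p = 0.07 and 0.072).

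*Lpcat3*, which puts polyunsaturated chains into membrane phospholipids, read 347, 395 and 401 in neural, 1090, 1480 and 1571 in mural, 1841, 1388 and 2203 in endothelial and 2484, 2199 and 2379 in microglia. It was lower in neural cells (-2.23, SE 0.17, limma, adjusted p = 9.4e-07) and higher in microglia (1.27, SE 0.17) and endothelial cells (0.73, SE 0.17). The endothelial call was lost without the first (limma, adjusted p = 0.059) or the third brain (adjusted p = 0.062), and within the shared kit the endothelial value was -0.01 and on equal sums per exon length 0.23 (adjusted p = 0.28). *Lpcat3* overlaps *Emg1*, so its reads are uncertain.

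The 2 receptors themselves had unlike patterns. *Nr1h3*, on chromosome 2 from 91184061 to 91202834, read 14.7, 28.2 and 29.3 in neural, 1188, 1186 and 2187 in mural, 294, 15.6 and 7.54 in endothelial and 57.1, 84.2 and 66.7 in microglia. The mural libraries lay far above all others, and Ec-340 held the highest value among the rest. *Nr1h3* was higher in mural cells (5.23, SE 0.86, limma, adjusted p = 0.00069). Without Ec-340 the mural difference was 5.75 (limma, adjusted p = 5.9e-06). The neural call (-2.66) was lost without the second or the third brain (adjusted p = 0.092 and 0.054) and on equal sums per exon length (-1.68, adjusted p = 0.10). *Nr1h2*, which is expressed in most tissues, read 1498, 1517 and 1688 in neural, 1527, 1202 and 2057 in mural, 478, 2378 and 1985 in endothelial and 3275, 2430 and 3208 in microglia. Its microglia libraries were the 3 highest, but no population was called (microglia 1.0, SE 0.40, limma, adjusted p = 0.062). The exons of *Nr1h3* overlap the transcript *Gm13783*.

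*Soat1*, on chromosome 1 from 156424525 to 156474331, makes the cholesteryl esters of lipid droplets. It read 805, 782 and 838 in neural, 1952, 1814 and 1711 in mural, 900, 1388 and 1365 in endothelial and 4669, 3560 and 5193 in microglia. The microglia libraries lay above and the neural libraries below all others, at differences of 1.87 (SE 0.16, limma, adjusted p = 4.2e-06) and -1.40 (SE 0.16). On equal sums per exon length the neural difference of *Soat1* was -0.38 (SE 0.19, limma, adjusted p = 0.093), and the endothelial libraries were the lowest, below all others. The endothelial call (-0.64) was lost without the first brain (adjusted p = 0.13). *Stard4*, which carries sterol between membranes, read 1689, 1491 and 1772 in neural, 4021, 2425 and 3269 in mural, 3719, 4730 and 4995 in endothelial and 856, 345 and 669 in microglia. It was higher in endothelial cells (1.62, SE 0.25, limma, adjusted p = 0.00048) and lower in microglia (-2.29, SE 0.25), whose libraries lay below all others. It was also called higher in mural cells (0.97), but not without the first (adjusted p = 0.058) or the third brain (adjusted p = 0.09). On the deposited scale microglia held the most *Soat1* and the least *Stard4* transcript of the 4 populations.

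To compare genes with one another within a population, levels were also computed per exon length (TPM, each library scaled to the same sum). In neural libraries *Acly* (461 ± 9.7 TPM, SD, n = 3) and *Hmgcs1* (427 ± 7.6) led the 31 genes, followed by *Insig1* (216 ± 11.4), *Cyp51* (206 ± 3.2) and *Srebf2* (183 ± 6.5). In mural libraries *Pmvk* (118.5 ± 17.2) and *Hmgcs1* (112.9 ± 16.2) led, with overlapping spreads. In endothelial libraries *Abcg1* (94.7 ± 22.2), *Pmvk* (73.5 ± 21.8) and *Abca1* (71.4 ± 15.2) had the highest means, and their spreads overlapped. In microglia *Acly* (92.7 ± 17.4) led *Abcg1* (73.1 ± 12.5), *Abca1* (72.2 ± 23.1) and *Nr1h2* (65 ± 13.4), again within each other's spread. With the length of the longest transcript in place of all exon bases, 37 of the 124 levels (31 genes in 4 populations) moved by more than the SD between libraries, so an order of genes within a population depends on the length used. On normalized counts, not TPM, the coefficient of variation between the 3 libraries of a population was also taken. Its median over the 31 genes was 4.57% in neural, 24.5% in mural, 31% in endothelial and 19.5% in microglia.

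The single cells gave a second view with 1 chemistry for all populations. Wells with more than 1500 transcripts were kept, which left 123 neural, 210 mural, 225 endothelial and 128 microglia cells, with a median of 7717, 6885, 6408 and 10761 transcripts. Transcripts were summed per gate and plate to 12 sums, between 50776 and 959619 transcripts, and tested in edgeR by quasi-likelihood over 9281 genes. In this way 26 of the 31 genes were tested. A gene was tested when at least 3 of the 12 sums reached 18.5 CPM, which *Mvd*, *Lss*, *Tm7sf2*, *Hsd17b7* and *Dhcr7* did not, at 29 to 83 transcripts in all. *Nr1h3*, with 38, was tested through its mural sums, and the other 25 genes reached this level in 3 or 4 gates. In neural cells 12 genes were higher and 5 lower, against 22.5% and 17.3% of all tested genes. The mural counts were 1 and 5 (13.5% and 8.3% of all genes), the endothelial 4 and 1 (16.4% and 6.96%) and those of microglia 5 and 9 (22.2% and 21.2%). By pairs, 8 genes were higher and 1 lower in neural than in mural cells (17.7% and 15.4% of all genes), 9 and 4 against endothelial cells (18.1% and 18.3%), and 11 and 5 against microglia (23.2% and 21.2%). Mural and endothelial cells differed in 1 and 6 genes (9.17% and 11.5%), mural cells and microglia in 8 and 6 (18.8% and 18.9%), and endothelial cells and microglia in 5 and 3 (18.7% and 17.5%).

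The median log2 fold change of the 26 genes was 0.78 (neural), -0.13 (mural), 0.06 (endothelial) and -0.41 (microglia), beside 0.04, -0.05, -0.02 and -0.03 for all tested genes. Plate 3 held only 43 of the 686 cells, and without it 14 genes were higher and 5 lower in neural cells (22.2% and 22.1% of all genes) and 6 and 11 in microglia (23.9% and 23.3%). Without plate 1 the neural numbers were 5 and 4 (11.8% and 11.7% of all genes), and without plate 2 they were 2 and 3 (11.9% and 11.3%). In microglia 5 genes were higher and 5 lower without plate 1 (13.7% and 12.5% of all genes), and 5 and 4 without plate 2 (13.9% and 13%). Leaving out 1 plate, the mural number lower ranged from 1 to 5 (1.99% to 8.15% of all genes). The gates were checked with the same marker lists. The mural markers summed to 9128 to 11424 CPM in the mural sums and to 485, 102 and 3566 CPM in the endothelial sums of plates 1, 2 and 3, so the endothelial sum of plate 3, from 13 cells, held mural transcripts, and its endothelial markers summed to 2845 CPM against 6124 and 5568 on the other plates. The neural markers summed to 926, 379 and 189 CPM in the mural sums, against 2616 to 3798 in the neural ones, and the microglia markers to 230 CPM in the endothelial sum of plate 1, against 7534 to 8020 in the microglia sums. The part of these other cells in the single-cell results was not tested beyond leaving out a plate. All 42 calls of the 26 genes held without plate 3. DESeq2 on the same sums called 6 genes higher in neural cells, and 14.7% of all genes.

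Of the 14 synthesis enzymes tested, 10 were higher in neural cells and *Ebp* was lower, against 22.5% and 17.3% of all genes, while *Mvk* (0.71, edgeR, adjusted p = 0.20), *Msmo1* (0.55, adjusted p = 0.12) and *Nsdhl* (0.86, adjusted p = 0.089) were not called. Gene levels in CPM are transcripts scaled to the depth of the gate's sum, adjusted by the normalization factor of edgeR. *Hmgcs1* stood at 242, 234 and 23.7 CPM in the neural sums of plates 1, 2 and 3, at 106, 66.7 and 75.8 in the mural, 105, 83.0 and 108 in the endothelial and 50.5, 38.3 and 0 in the microglia sums. On the 2 deep plates the neural sums were the highest and the microglia sums the lowest, while the neural value of plate 3 rests on 2 transcripts. Its neural fold change was 1.52 (SE 0.25, edgeR, adjusted p = 8.7e-07). *Fdft1* was higher by 2.37 (SE 0.26, adjusted p = 2.8e-11) and *Acat2* by 2.92 (SE 0.27, adjusted p = 1.2e-13), both with all neural sums above the other 9. *Sqle*, *Fdps*, *Cyp51*, *Sc5d*, *Acly*, *Pmvk*, *Idi1*, *Srebf2* and *Insig1* were the others called higher, at 0.91 to 1.76. Without plate 2, *Pmvk* and *Sc5d* could not be tested, and of the other 10 genes only *Fdft1* and *Acat2* were still called (adjusted p = 0.00064 and 3.9e-05).

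In microglia the fold change was -3.03 (SE 0.46, edgeR, adjusted p = 1.6e-07) for *Acat2*, -2.69 (SE 0.48) for *Sqle*, -2.25 (SE 0.39) for *Fdft1* and -1.34 (SE 0.36) for *Srebf2*, the last not without plate 2 (-0.99, adjusted p = 0.30). *Ebp* again went the other way, at 67.9, 51.1 and 98.8 CPM in microglia against 12.4, 4.5 and 0 in neural cells, with a microglia fold change of 2.01 (SE 0.35, edgeR, adjusted p = 2.3e-06). Its neural call (-1.94) was lost without plate 2 (adjusted p = 0.068). *Soat1* was higher in microglia by 2.08 (SE 0.28, adjusted p = 7.6e-09).

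*Abca1* stood at 548, 639 and 270 CPM in endothelial sums (the last with mural markers) and 435, 592 and 178 in microglia sums, against 28.9, 33.8 and 35.5 in neural and 23.3, 24.1 and 12.6 in mural ones. The first pair and the second pair of populations did not overlap. *Abca1* was higher in endothelial cells (2.91, SE 0.26, edgeR, adjusted p = 2.9e-14) and microglia (2.6, SE 0.27, adjusted p = 1.7e-12) and lower in both others, while endothelial cells and microglia differed by 0.23 (SE 0.31, adjusted p = 0.59). *Abcg1* and *Lpcat3* were called in the same directions as *Abca1* in each population. The mural calls of both and the endothelial call of *Lpcat3* were lost without plate 1 (adjusted p = 0.18, 0.66 and 0.32) or plate 2 (adjusted p = 0.11, 0.56 and 0.32). *Stard4* was higher in endothelial cells (2.11, SE 0.29, adjusted p = 3.2e-08) and lower in microglia (-1.89, SE 0.45, adjusted p = 0.00045), the latter not without plate 1 (adjusted p = 0.071) or plate 2 (adjusted p = 0.092).

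*Nr1h3* stood at 19, 21.8 and 25.3 CPM in the mural sums, from 13, 19 and 2 transcripts, and had 0 transcripts in every neural sum. It was the 1 gene called higher in mural cells, but it reached the level needed for testing in the mural sums alone and so had to differ. Its fold change is drawn in the figures but is not read as a result. Of the other 3 gates, endothelial cells held 3 transcripts, all on plate 1, and microglia 1.

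**Figure D3:**
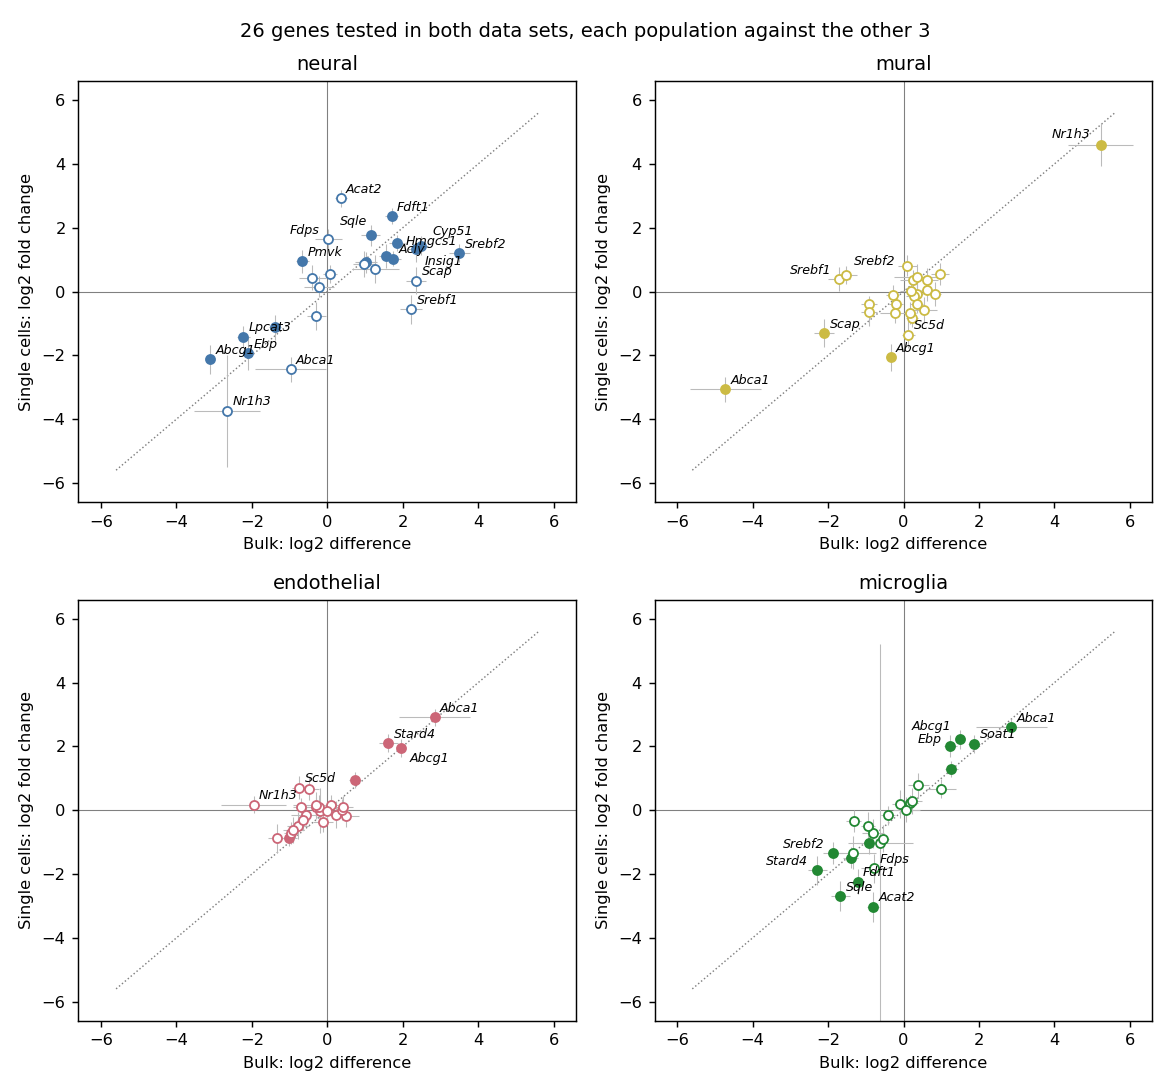
For the 26 genes tested in both experiments, the log2 difference of a population from the other 3 in bulk (horizontal) and in the single cells (vertical), with bars of 1 SE and a dotted line of equality. The single-cell SE was worked out from the test statistic. Filled points were called in both. The filled mural point of *Nr1h3* is no result, since in single cells the gene was tested through its mural sums alone. In the microglia panel the bar that leaves the frame is that of *Nr1h3*, which had 1 transcript there, and in the neural panel *Srebf1*, *Acat2* and *Srebf2* have the largest gaps between the values.

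Side by side, 22 of the 26 genes had the same sign in both experiments in neural cells (84.6%, against 73.5% of the 8835 genes tested in both). The same held for 16 genes in the mural contrast (61.5%, against 69% of all), 17 in the endothelial (65.4%, against 72.5%) and 25 in that of microglia (96.2%, against 81.9%). Called in both experiments were 14 genes in neural cells, of which 13 had 1 direction and *Pmvk* did not (-0.66 in bulk, 0.94 in single cells, but 0.35 in bulk on equal sums per exon length). This is 92.9% of the genes called in both, beside 94.1% of all genes. All 4 mural, all 5 endothelial and all 12 microglia genes called in both had 1 direction, as did 97.6%, 99.3% and 99.5% of all genes called in both, so the members' share was near that of all genes. *Nr1h3*, tested through its mural sums alone, is among the 4.

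The neural contrasts differed most in size. *Srebf1* was 2.22 in bulk and -0.56 (SE 0.45, edgeR, adjusted p = 0.34) in the single cells, at 12.4, 29.3 and 0 CPM in neural and 26.3, 31 and 50.5 in mural sums. *Scap* was 2.36 in bulk and 0.34 (SE 0.42, adjusted p = 0.56) in the single cells, and *Srebf2* 3.5 and 1.21. In the other direction *Acat2* was 0.35 in bulk and 2.92 in the single cells, and *Fdps* 0.02 and 1.65, with bulk values of 1.37 and 1.03 on equal sums per exon length. On that scale the bulk values of *Srebf1*, *Scap* and *Srebf2* were 3.23, 3.37 and 4.51, further from the single cells. The low mural level of *Scap* was called in both (-2.10 and -1.30), the latter not without plate 2 (adjusted p = 0.23), in DESeq2 (adjusted p = 0.27) or with no filter (adjusted p = 0.057). The mural values of *Srebf1* (-1.72 in bulk, 0.39 in single cells) and *Srebf2* (-1.52 and 0.51) differed in sign, and neither was called in single cells (edgeR, adjusted p = 0.53 and 0.21). *Sc5d* was 0.13 in mural cells in bulk and called lower there in single cells (-1.35, adjusted p = 0.015), though not without plate 1 (adjusted p = 0.32) or in DESeq2 (adjusted p = 0.33). The difference between the experiments was not tested. The kit, the depth and the counting of transcript ends all changed between them and cannot be told apart.

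Shares of cells tell how the levels were spread over cells. At least 1 transcript of *Abca1* was found in 186 of 225 endothelial cells (82.7%, exact 95% interval 77.1 to 87.4) and in 110 of 128 microglia (85.9%, 78.7 to 91.4), but in 10% of mural and 15.4% of neural cells. As a background, the microglia gene *C1qc* was found in 96.1% of microglia but also in 4.07% (neural), 6.67% (mural) and 8.89% (endothelial) of the others. When every cell was thinned to 1500 transcripts, *Abca1* was found in 49.8% of endothelial cells, 48.4% of microglia, 2.38% of mural and 0.813% of neural cells, and *C1qc* in 1.43% to 2.67% of the other gates. Gate by gate, the thinned share of *Abca1* was 0.813% in neural cells beside 1.63% for *C1qc*, and 2.38% in mural cells beside 1.43%, where before thinning *Abca1* was above *C1qc* in both. The endothelial and microglia shares of *Abca1* were far above all of these.

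*Hmgcs1* was seen in 61.8% of neural cells (52.6 to 70.4), 38.7% of endothelial, 33.8% of mural cells and 25.8% of microglia, and after thinning in 24.4%, 12.4%, 11% and 7.03%. *Acat2* reached 57.7% of neural cells (48.5 to 66.6) against 6.25% of microglia (2.74 to 11.9) (thinned, 13% against 2.34%). *Stard4* was found in 40.4% of endothelial cells (34 to 47.2) and 7.81% of microglia (thinned, 12% and 1.56%), and *Soat1* in 50.8% of microglia (41.8 to 59.7) against 13% to 19.6% of the other gates (thinned, 14.8% against 2.22% to 3.33%). *Nr1h3* had a transcript in 26 of 210 mural cells (12.4%, 8.25 to 17.6; thinned, 3.33%) and in 0 of the 123 neural cells. That 0 allows a share of up to 2.95% of neural cells with a transcript at this depth and does not limit the share that express the gene. Intervals and limits cover counting error only.

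**Figure D4:**
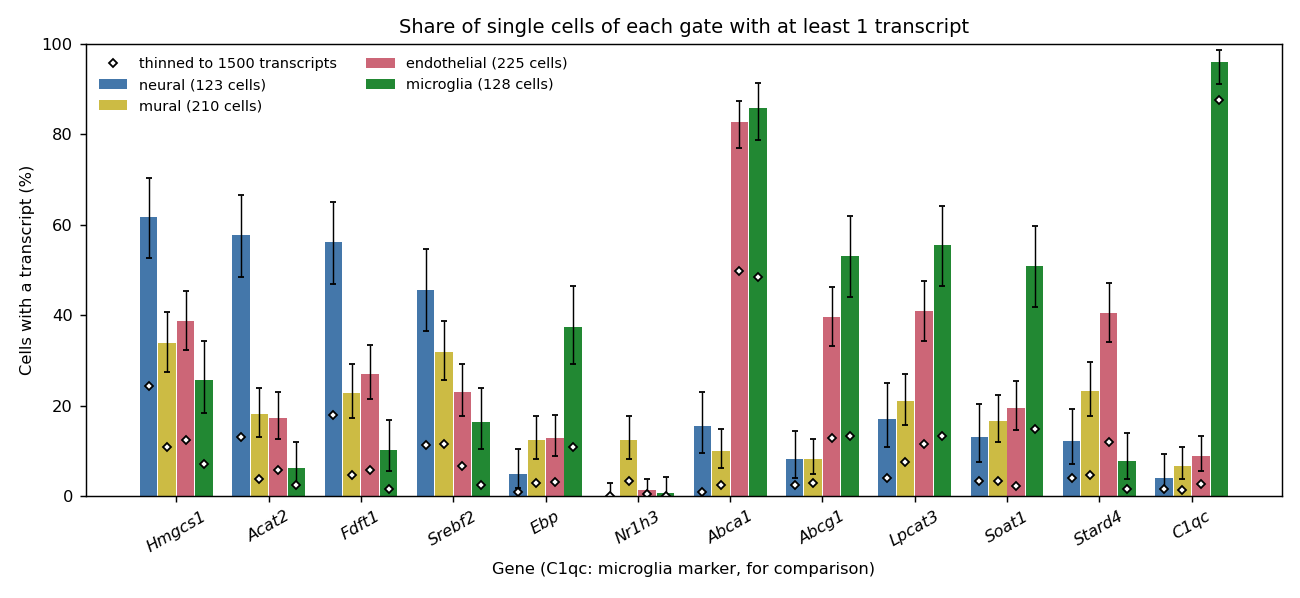
Percent of the kept cells of each gate with at least 1 transcript of 11 of the genes and of the microglia marker *C1qc*. Bars start at 0 and carry exact 95% intervals, and diamonds give the share after every cell was thinned to 1500 transcripts. *Abca1* reaches 82.7% and 85.9% of endothelial cells and microglia, and *Nr1h3* reaches 12.4% of mural cells and at most 1.33% of the other gates.

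Around the 31 genes, 44 further genes of lipid metabolism were counted in the same fits, of which 43 were tested in bulk. These lists too were chosen with earlier results of these data known. Of the 10 genes of fatty acid synthesis and desaturation, 8 were higher in neural cells in bulk and none lower, against 32.9% and 31.2% of all genes, with a median of 3.11. *Fasn*, which makes palmitate, was 3.96 there and *Scd2*, a desaturase, 2.85. In single cells 4 of the 5 tested were higher, against 22.5% of all genes, among them *Fasn* (1.72) and *Elovl6* (1.97), an elongase. Of the 4 tested genes of SREBP processing, 3 were higher in neural cells in bulk, among them the protease genes *Mbtps1* (1.05) and *Mbtps2* (0.91), and *Ubxn4* was lower (-1.18), while in single cells none of the 4 was called in either direction there. Of 10 genes of the isoprenoid branch and sterol co-factors, 5 were higher and 2 lower in neural cells in bulk, again against 32.9% and 31.2%.

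The 14 genes of lipoprotein receptors and sterol trafficking were split, with 6 higher and 6 lower in neural cells (32.9% and 31.2% of all genes) and 6 higher and 4 lower in microglia (23.4% and 22.3%) in bulk. *Mylip*, an LXR target that sends lipoprotein receptors for breakdown, was higher in microglia (4.43 in bulk, 3.32 in single cells). *Lipa*, the lysosomal acid lipase, was higher in both endothelial cells (1.74 and 1.66) and microglia (1.88 and 2.26). *Lrp8*, a reelin receptor, was higher in endothelial cells (5.44 and 4.03) and lower in microglia (-4.82 and -2.15). All 5 genes of oxysterol and cholesterol breakdown were called in neural cells in bulk, 3 higher and 2 lower, against the same 32.9% and 31.2%. *Cyp46a1*, the neuronal enzyme that makes 24-hydroxycholesterol, was 5.37 in neural cells, *Cyp27a1* was 6.10 in microglia and *Ch25h* 6.0 in mural cells, and none of the 5 could be tested in single cells.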

How the data were processed

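The 31 genes and all lists were chosen with earlier results of these data known. The 12 bulk libraries were deposited as a signal table: the authors divided gene read counts by 1 size factor per library (STAR, featureCounts, DESeq2 and mm10 are named in the submitters' processing notes, without roles). Whole reads were recovered for 100% of 124030 low values within 0.01. The deposited single-cell tables hold expected counts, which the authors corrected for molecular identifiers drawn more than once (BWA 0.6.2-r126 is named). These were rounded and summed per gate and plate over the 686 of 994 gated wells above 1500 transcripts. Doublets were not called. *Mof* knockout plates were not used.

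Bulk genes averaging 10 or more normalized counts were compared in limma 3.58.1 on log2(normalized count + 1), all 12 libraries in 1 fit, so that a fold change of a low gene is understated. Single-cell sums were compared with edgeR 4.0.16 (quasi-likelihood, R 4.3.3). The SE of a single-cell fold change is its size divided by the square root of the test's F statistic, not an edgeR estimate. P-values were adjusted by Benjamini-Hochberg over all tested genes. Levels per length used GENCODE exon lengths of GRCm38. Named in full were genes called in at least 1 contrast without overlap of libraries, and all SREBP and LXR genes. Libraries of 1 brain did not deviate together (same-brain correlations -0.054 to 0.0801), nor do plates (-0.013 to 0.0723), so no block was used. By the study's description the single cells came from 3 wild-type brains, but plates are not tied to brains in the sources used here, so p-values over plates may measure technical spread. Alternatives were other pseudocounts and minimums, quantile normalization, blocks, edgeR and DESeq2 1.42.0 on recovered reads, 1 kit only, other well filters, a 2-fold minimum, and leaving out each brain or plate. Leaving out Mu-343 or Ec-340, and scaling to equal sums per exon length, were added after seeing the data. On simulated data the bulk fit recovered 72 of 100 2-fold and 100 of 100 4-fold changes, and the single-cell fit 98 and 100 of 100.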

Additional observations from a re-analysis of the deposited data

How the results depend on the processing

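Of the 65 calls among the 31 genes in bulk, all kept their direction and side of the threshold with pseudocounts of 0.5 or 5 and a minimum of 50, and 62 did with no minimum, 59 under quantile normalization, 60 in edgeR and all 63 with a value in DESeq2. With libraries scaled to equal sums per exon length, added after seeing the data, 56 held, 8 were lost and *Pmvk* in neural cells turned to 0.35. With a replicate block for the brain 62 held, losing the mural calls of *Mvd* and *Abcg1* and the microglia call of *Nsdhl*. With a replicate block for the plate all 42 single-cell calls held and the number higher in mural cells was 2 (15.1% of all genes). Within 1 kit 21 of 43 calls held, 20 were lost and 2 turned, *Ebp* in mural cells to -0.087 and *Lpcat3* in endothelial cells to -0.0092. The reference there is the mean of the other 2 populations, without neural cells, so these are not repeats of the same contrast. The cause was not tested.

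The number lower within 1 kit was 4 (mural), 1 (endothelial) and 7 (microglia). Equal sums per exon length gave 3 lower in neural cells and 2 higher and 14 lower in endothelial cells. Quantile normalization gave 8 higher in mural cells (22.7% of all genes). With a 2-fold minimum the bulk numbers were 1 higher and 5 lower in mural cells, 3 and 3 in endothelial cells, and 7 lower in microglia, and in single cells 0 lower in endothelial cells. In single cells DESeq2 gave 6 higher in neural cells, 2 lower in mural cells and 0 lower in endothelial cells, no filter gave 3 lower in mural and 0 lower in endothelial cells, and the number higher in mural cells was 2 with all wells of the gate (14.6% of all genes) and 2 without *Gm10800* and mitochondrial genes (15.1%). The neural calls lost in DESeq2 were those of *Acly*, *Pmvk*, *Idi1*, *Cyp51*, *Sc5d*, *Insig1* and *Soat1*.

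Leaving out 1 brain or 1 library, the bulk numbers higher and lower ranged from 13 to 18 and 5 to 7 (neural), 2 to 6 and 6 to 11 (mural), 2 to 5 and 4 to 10 (endothelial), and 4 to 6 and 10 to 14 (microglia). Leaving out 1 plate, the single-cell numbers ranged from 2 to 14 and 3 to 5 (neural), 0 to 1 and 1 to 5 (mural), 3 to 5 and 0 to 2 (endothelial), and 5 to 6 and 4 to 11 (microglia). The share of all genes called moved too. Leaving out 1 brain or library, the percentages higher and lower in bulk ranged from 27.2 to 33.9 and 25.9 to 32 (neural), 13.4 to 20.9 and 15.8 to 24.8 (mural), 13.7 to 20.2 and 16.2 to 23.2 (endothelial), and 16.7 to 24.7 and 17.1 to 23.8 (microglia). Leaving out 1 plate, they ranged from 11.8 to 22.2 and 11.3 to 22.1 (neural), 9.04 to 16.9 and 1.99 to 8.15 (mural), 9.94 to 19.6 and 0.974 to 8.69 (endothelial), and 13.7 to 23.9 and 12.5 to 23.3 (microglia). With a 2-fold minimum 13.5% and 18.6% of all genes were higher and lower in mural cells in bulk, 15.4% and 18.3% in endothelial cells and 18.7% lower in microglia, and 4.99% lower in endothelial single cells. In single cells DESeq2 called 14.7% of all genes higher in neural cells, 2.91% lower in mural and 2.03% lower in endothelial cells, and the fit with no filter 2.49% lower in mural and 2.22% lower in endothelial cells. Plate 3 had few cells, and 5 genes were too low for any single-cell test.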
